A study of Mus musculus with 8 samples.

Results

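Amino acid transporters carry the building blocks and fuels that a T cell takes up when it is activated, grows and divides. The 10 transporter genes described here, Slc7a1, Slc7a5, Slc7a6, Slc7a7, Slc7a10, Slc7a11, Slc3a2, Slc1a5, Slc38a1 and Slc38a2, were taken by their gene names from the 29924 gene names on the array. Of these, 9 were among the 15764 genes bright enough to test, and Slc7a11 was not. Where a gene had several probes, the brightest gave its value and the others served as a check.

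RNA came from CD4 T cells sorted from peripheral lymph nodes (pLN) of B6.Cg-Foxp3<tm1Mal> mice, in which GFP marks Foxp3-expressing cells, after subcutaneous immunization with keyhole limpet hemocyanin in alum. The mice were of mixed sex and 8 to 14 weeks old, and each sorted population was pooled from 8 to 15 animals. Naïve CD4 T cells were sorted as GFP- PD1- GL7-, TFH cells as GFP- PD1hi GL7+, Treg cells as GFP+ PD1- GL7-, and TFR cells as GFP+ PD1hi with or without GL7. Each population gave 1 array at day 12 (d12) and 1 at day 25 (d25) post immunization (p.i.), thus 8 arrays and 2 per cell type. The pools of a cell type differ in day, so every p-value rests on how well the 2 days repeated. That spread was taken per gene over all 4 cell types together and moderated over all genes. All mice carried the reporter allele and all were immunized, so naïve cells here are naïve cells of immunized mice.

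Most of the proteins encoded by these genes work in pairs or in families. Slc3a2 (CD98) is the heavy chain that brings several light chains to the plasma membrane. Among these light chains, Slc7a5 (LAT1) exchanges large neutral amino acids such as leucine, Slc7a6 and Slc7a7 exchange cationic for neutral amino acids, Slc7a10 (Asc1) exchanges small neutral amino acids such as serine, glycine and alanine, and Slc7a11 (xCT) exchanges cystine for glutamate. Slc7a1 (CAT1) takes up arginine and lysine without the heavy chain, Slc1a5 (ASCT2) carries glutamine and other neutral amino acids, and Slc38a1 and Slc38a2 (SNAT1 and SNAT2) are sodium-coupled carriers of glutamine and alanine. In activated T cells, Slc7a5 and Slc1a5 are known for supplying leucine and glutamine to growth through mTORC1, and Slc38a2 is a known target of the transcription factor ATF4 under amino acid shortage.

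The probes lie, on the mouse build NCBI37 (mm9), at chr5:149139957-149140016 for Slc7a1, chr8:124405136-124405195 for Slc7a5, chr8:108722470-108722529 for Slc7a6, chr14:54989166-54989225 for Slc7a7 and chr7:35985868-35985927 for Slc7a10. Those of Slc7a11, Slc3a2, Slc1a5, Slc38a1 and Slc38a2 lie at chr3:50169700-50169759, chr19:8782189-8782248, chr7:17383359-17383418, chr15:96406793-96406852 and chr15:96518491-96518550. All 14 probes of the 10 genes carry a transcript accession that the RefSeq gene table gives to the same symbol. Levels are in relative units (RU), scaled so that the 75th percentile of each array is 1500 RU, with a floor of 20 RU, and they compare arrays for 1 probe but not 1 gene with another.

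The labels held against the genes that define these cells. Foxp3 read 48593 to 49262 RU on the Treg arrays and 37266 to 37513 RU on the TFR arrays, against 66 to 358 RU on the 4 Foxp3- arrays. The follicular genes Pdcd1, Cxcr5, Bcl6 and Icos were each higher on all TFH and TFR arrays than on the corresponding naïve and Treg arrays. The TFH array of d25 had the highest summed level of the 10 B cell markers, with 2738 RU for Ms4a1 against 65 to 1142 RU elsewhere, while Pax5 stayed at the floor on all 8 arrays. Of these markers, Cd22 was highest on the TFH array of d12 (6017 RU) and Cd79b on the Treg array of d25 (7547 RU). Jchain and Mzb1, of antibody-secreting cells, were highest on the naïve array of d12 (7466 and 7639 RU).

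The promoters of 3 members are shown because Slc7a10 and Slc7a7 had the largest follicular increases of the 9 and Slc7a11 was not detected. Each line gives the 250 bases before an annotated transcription start, 5′ to 3′ on the gene's strand, from the RefSeq promoter table on GRCm38.p6, a later build than that of the probes. Capitals mark the CCAAT/enhancer binding protein-ATF response element, TGATGNAA on either strand, through which ATF4 acts. The windows are chr7:35186135-35186384 on the plus strand for Slc7a10, chr14:54417945-54418194 on the minus strand for the most upstream of 5 listed Slc7a7 starts, and chr3:50443614-50443863 on the minus strand for Slc7a11.
Slc7a10: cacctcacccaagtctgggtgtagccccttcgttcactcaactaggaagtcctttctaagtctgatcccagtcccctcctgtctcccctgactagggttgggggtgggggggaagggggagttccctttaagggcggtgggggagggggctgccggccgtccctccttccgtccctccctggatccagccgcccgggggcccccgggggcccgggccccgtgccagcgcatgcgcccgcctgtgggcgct
Slc7a7: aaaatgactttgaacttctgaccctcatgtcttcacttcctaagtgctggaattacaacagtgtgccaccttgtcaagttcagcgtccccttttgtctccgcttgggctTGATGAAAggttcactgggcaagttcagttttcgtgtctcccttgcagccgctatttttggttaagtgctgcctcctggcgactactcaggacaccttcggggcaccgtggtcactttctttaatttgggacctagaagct
Slc7a11: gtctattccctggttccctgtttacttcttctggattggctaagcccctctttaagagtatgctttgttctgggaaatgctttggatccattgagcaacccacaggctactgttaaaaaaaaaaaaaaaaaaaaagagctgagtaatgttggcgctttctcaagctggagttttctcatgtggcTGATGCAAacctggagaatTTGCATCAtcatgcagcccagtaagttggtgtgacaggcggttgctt

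In the windows of 300 bases around the starts, the element was found for Slc7a7 and Slc7a11 among the 7 members with an entry. It stood in 3 of the 13 member windows and in 3.97% of the 32851 windows of the table. The member windows with it include overlapping windows of Slc7a7 that share a match. The match shown for Slc7a7 begins 141 bases before the start, and a further match begins at the last base of the line and runs on into the transcript. No member window held the E-box CACGTG, which stands in 7.15% of all windows. The antioxidant response element TGANNNNGC was found in 9 of the 13 member windows, from 5 of the 7 members, and in 41.3% of all windows. Its matches can overlap those of the first motif. Slc7a10 had none of the 3 motifs in this window. Slc7a5, Slc1a5 and Slc38a1 were not in the table.

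Some of the 9 transporters tested were called different between follicular cells and their non-follicular counterparts. Slc7a10, Slc7a7 and Slc1a5 were higher in both TFH and TFR cells, Slc38a2 was lower in both, and Slc38a1 was higher and Slc7a5 lower in TFH cells compared with naïve cells. In TFH compared with naïve cells, 4 members were higher and 2 lower at an adjusted p under 0.05 (limma, Benjamini-Hochberg over all 15764 genes). The share of the 15764 genes that passed in this comparison was 20.9% for higher and 25.6% for lower. In TFR compared with Treg cells, 3 members were higher and 1 lower, where 18.7% of all genes were called higher and 20.9% lower. The median log2 difference over the 9 members was 0.39 in TFH and 0.26 in TFR cells, beside medians over all genes of −0.07 and −0.08. Both member medians are the values of Slc7a6, which was called in neither comparison. Its TFH difference was 0.86 at d12 and −0.08 at d25, so these medians show no shift of the members as a group. The arrays of each of these comparisons shared a slide on each day. In bulk RNA of a sorted population, more cells with the transcript and more transcript per cell cannot be told apart.

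**Figure D1:**
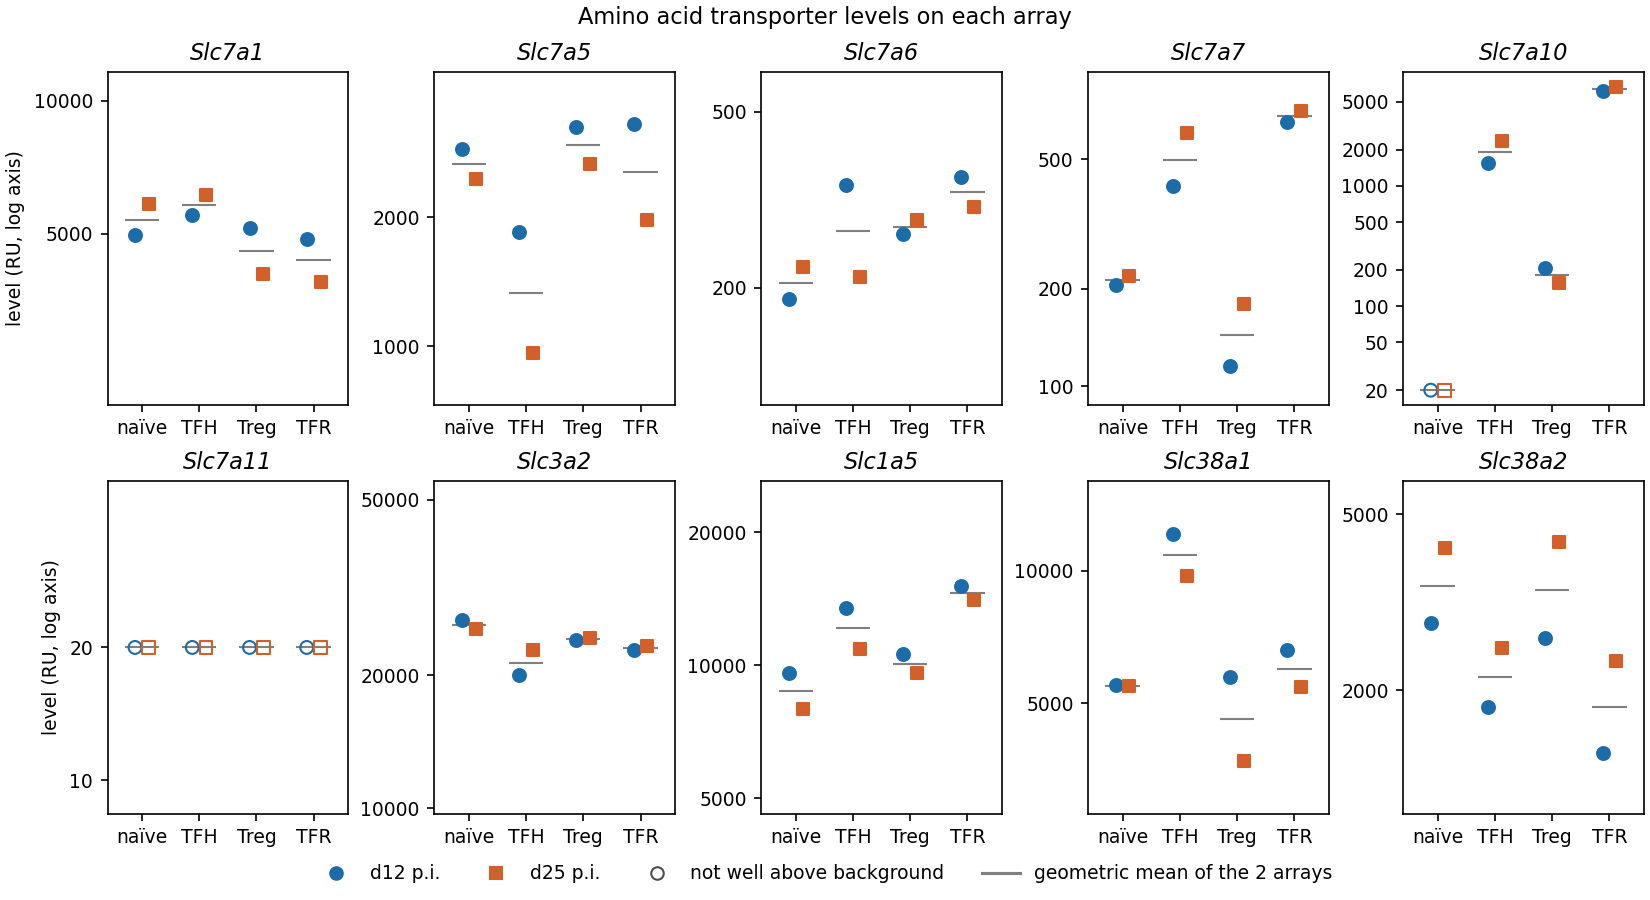
Level of each of the 10 transporters on each of the 8 arrays (RU on a log axis whose range differs between panels), with circles for d12, squares for d25, open symbols where the probe was not well above background and grey lines for the geometric mean of the 2 arrays of a cell type. Slc7a10 spans from the floor of 20 RU on naïve arrays to 6671 RU on TFR arrays, and Slc7a11 is at the floor throughout.

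The light chains of the Slc7 family showed the widest changes, led by Slc7a10, which is known mainly from neurons and adipocytes. Slc7a10 was at the floor of 20 RU on both naïve arrays, where its probe was not well above background. It read 206 and 157 RU (d12 and d25) in Treg cells, 1543 and 2364 RU on TFH arrays, and 6154 and 6671 RU on TFR arrays. The 4 cell types did not overlap, in the order TFR, TFH, Treg and naïve.

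TFR cells exceeded Treg cells in Slc7a10 by a log2 difference of 5.16 (SE 0.24, 35.6-fold, adjusted p = 0.000572), with 4.90 at d12 and 5.41 at d25. TFR cells also exceeded TFH cells, by 1.75 (SE 0.24, 3.36-fold, adjusted p = 0.0106). This last call was lost without the TFR array of d12 (1.77, adjusted p = 0.0881) or of d25 (1.73, adjusted p = 0.0838). Against naïve cells only a bound can be given, taken from the lowest level well above background on the naïve arrays. On that basis TFH cells (mean 1910 RU) were at least 32.7-fold higher and Treg cells (mean 180 RU) at least 3.08-fold higher. Both comparisons were called by limma with the naïve arrays at the floor (adjusted p = 0.000177 and 0.00336). Those p-values do not test the bounds. Of the adipocyte markers, Plin1, Cfd, Lep, Car3 and Cidec were not well above background in any cell type, and Adipoq read 56 to 70 RU on naïve arrays, 102 to 190 RU on Treg arrays, 136 to 235 RU on TFH arrays and 228 to 255 RU on TFR arrays. Adipoq was called higher in both follicular comparisons and in Treg compared with naïve cells, although its probe was not well above background on the naïve arrays. Retn, the last of the markers, read 69 and 54 RU on naïve arrays, 150 and 79 RU on Treg arrays, 392 and 47 RU on TFH arrays and 130 and 93 RU on TFR arrays, which is not the order of Slc7a10, and it was not called. The summed level of the 7 adipocyte markers was 220 to 239 RU on naïve arrays, 280 to 440 RU on Treg arrays, 283 to 727 RU on TFH arrays and 422 to 485 RU on TFR arrays, and its part in the result was not tested.

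Among the genes whose log2 level followed that of Slc7a10 most closely over the 8 arrays were Lix1l (Pearson's r 0.998) and the interferon-inducible gene Ifi27l2a (0.996). They share the order of the 4 cell types, with Lix1l at 33 and 35 RU on naïve arrays, 76 and 81 RU on Treg arrays, 161 and 206 RU on TFH arrays and 255 and 276 RU on TFR arrays. The naïve values of Lix1l lie under the lowest levels well above background there (68.2 RU at d12 and 49.9 RU at d25). Slc7a10 was at the floor on the same arrays. These r values describe 4 pairs of arrays and were picked as the highest of all genes tested.

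Slc7a7 (y+LAT1), which exports cationic amino acids in exchange for neutral ones and is known from epithelia and macrophages, followed Slc7a10 at a lower amplitude. It read 205 and 219 RU on naïve arrays and 413 and 601 RU on TFH arrays at d12 and d25, a log2 difference of 1.24 (SE 0.17, 2.36-fold, adjusted p = 0.00511). In Treg cells it read 116 and 179 RU and in TFR cells 653 and 702 RU, a difference of 2.23 (SE 0.17, 4.69-fold, adjusted p = 0.00169). The 4 cell types did not overlap, and their order was TFR, TFH, naïve and Treg, with neither TFR against TFH (0.44, adjusted p = 0.139) nor Treg against naïve cells (−0.55, adjusted p = 0.125) passing the test.

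Markers of myeloid cells, which also use Slc7a7, were measured on the same arrays. Of the 11 on the list, Cd14 and Adgre1 were not well above background in any cell type, Cd68, Cst3 and Lyz1 were higher and Csf1r and Itgam lower in TFH than in naïve cells, and Cd68 and Lyz1 were higher in TFR than in Treg cells. Their summed level was 52400 to 66500 RU on naïve arrays, 65500 to 68700 RU on TFH arrays, 56300 to 58000 RU on Treg arrays and 66400 to 68300 RU on TFR arrays. Itgam and Cst3 made up most of that sum. Cd68 alone read 551 and 564 RU on naïve arrays, 5098 and 3768 RU on TFH arrays, 368 and 394 RU on Treg arrays and 2868 and 2333 RU on TFR arrays. The part of these markers in the Slc7a7 result was not tested.

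Slc7a5, the leucine-transporting light chain, went the other way in TFH cells. It read 2882 and 2460 RU on naïve arrays against 1850 and 965 RU on TFH arrays, a log2 difference of −0.99 (SE 0.21, adjusted p = 0.0162). The difference was −0.64 at d12 and −1.35 at d25. The call was lost without the TFH array of d25 (−0.74), which is the one with the highest summed B cell level, or without the naïve array of d25 (−0.78). Treg cells read 3259 and 2664 RU and TFR cells 3308 and 1972 RU, and these groups overlapped with each other and with naïve cells.

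A second Slc7a5 probe, at chr8:124430996-124431055 and 25.9 kb from the first, gave the same decrease in TFH cells but a different picture in TFR cells. It read 340 and 368 RU on naïve arrays, 199 and 125 RU on TFH arrays, 453 and 318 RU on Treg arrays and 196 and 133 RU on TFR arrays. TFR cells were therefore 0.94 above TFH cells on the log2 scale by the first probe (SE 0.21, adjusted p = 0.0366) but 0.04 above them by the second (adjusted p = 0.921). Conversely, TFR and Treg cells differed by −0.21 (adjusted p = 0.466) by the first probe and by −1.23 (adjusted p = 0.0114) by the second. The higher level in TFR than in TFH cells thus rests on 1 of 2 probes. By that probe it was also lost when any array other than the TFH array of d12 was left out, with adjusted p up to 0.21 and differences from 0.68 to 1.07.

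**Figure D2:**
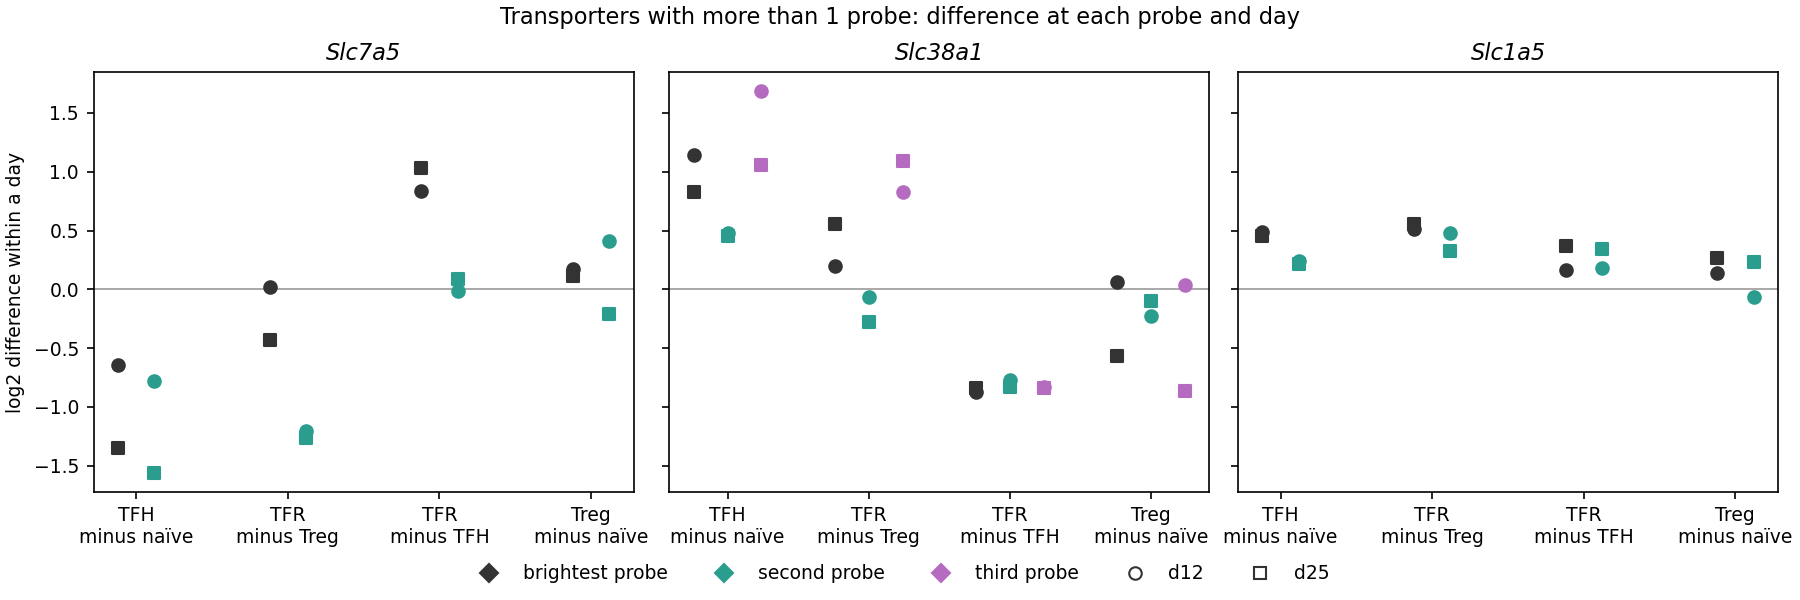
Log2 difference within each day (circles d12, squares d25) at each probe of Slc7a5 (2 probes), Slc38a1 (3 probes) and Slc1a5 (2 probes) for 4 pairs of cell types, with colours for the probes in order of brightness. The Slc7a5 probes lie together for TFH minus naïve and apart for TFR minus Treg and TFR minus TFH.

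The genes closest to Slc7a5 over the 8 arrays were a ribosomal protein S2 pseudogene transcript (r 0.995), Ptges2 (0.994), which encodes a prostaglandin E synthase, and a predicted gene (0.986). Ptges2 read 1911 and 2404 RU on TFH arrays and 2415 to 2877 RU elsewhere, so its range was narrower than that of Slc7a5.

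The remaining light chains gave no call in the 6 comparisons with all arrays. Slc7a6 read 188 and 223 RU on naïve arrays, 342 and 211 RU on TFH arrays, 264 and 284 RU on Treg arrays and 355 and 304 RU on TFR arrays. The 2 TFH arrays spanned more than the naïve ones, and the TFH difference was 0.39 (95% interval −0.24 to 1.02), which became 0.76 (adjusted p = 0.0429) without the TFH array of d25. Slc7a11, the cystine carrier, was listed at the floor of 20 RU and not well above background on all 8 arrays, so no comparison was made.

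Slc3a2, the shared heavy chain, was within a narrow range in all 4 cell types. It read 26696 and 25412 RU on naïve arrays, 20041 and 22788 RU on TFH arrays, 24043 and 24313 RU on Treg arrays and 22884 and 23262 RU on TFR arrays. TFH cells lay below naïve cells on both days by −0.29 (SE 0.10), which missed the threshold (adjusted p = 0.0659), and the 95% interval for TFR minus Treg cells was −0.32 to 0.18. Without the TFH array of d25 the TFH difference passed (−0.38, adjusted p = 0.0465). Slc7a1, the arginine carrier that needs no heavy chain, read 4958 and 5839 RU on naïve arrays, 5527 and 6111 RU on TFH arrays, 5161 and 4053 RU on Treg arrays and 4859 and 3896 RU on TFR arrays. All neighbouring cell types overlapped in Slc7a1, and its TFH minus naïve difference was 0.11 (95% interval −0.37 to 0.59).

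The glutamine carriers split by gene. Slc1a5 read 9609 and 7962 RU on naïve arrays and 13514 and 10917 RU on TFH arrays, a log2 difference of 0.47 (SE 0.09, 1.39-fold, adjusted p = 0.0141). It read 10605 and 9594 RU on Treg arrays and 15144 and 14070 RU on TFR arrays, a difference of 0.53 (SE 0.09, 1.45-fold, adjusted p = 0.0126). Both follicular populations lay above both non-follicular ones, whereas TFR and TFH cells differed by 0.27 (adjusted p = 0.112). A second probe gave 0.23 for TFH (adjusted p = 0.159) and 0.41 for TFR cells. The TFH call was lost without the naïve array of d12 (0.52, adjusted p = 0.0632) or d25 (0.43, adjusted p = 0.0874) or the TFH array of d12 (0.41, adjusted p = 0.0546), and the TFR call without any 1 of the 4 Treg and TFR arrays (0.47 to 0.60, adjusted p from 0.057 to 0.0866).

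Slc38a1 was high in TFH cells. It read 12123 and 9736 RU on TFH arrays, 5496 and 5478 RU on naïve arrays, 5746 and 3701 RU on Treg arrays and 6603 and 5438 RU on TFR arrays. Only the TFH arrays stood apart, while the other 3 cell types overlapped. TFH cells exceeded naïve cells by 0.99 (SE 0.16, 1.98-fold, adjusted p = 0.0081), and TFR cells lay 0.86 below TFH cells (log2 difference −0.86, SE 0.16, adjusted p = 0.0244). All 3 probes placed TFR below TFH cells, by −0.80 to −0.86, but for TFR minus Treg cells they gave 0.38, −0.17 and 0.96. The difference between TFR and TFH cells kept its size without any 1 of the 4 TFH and TFR arrays (−0.88 to −0.84) but not its call (adjusted p from 0.0824 to 0.152).

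Slc38a2 lies on the same stretch of chromosome 15 as Slc38a1 but was lower in follicular cells. It read 2839 and 4187 RU on naïve arrays against 1835 and 2484 RU on TFH arrays, a log2 difference of −0.69 (SE 0.11, adjusted p = 0.00647). In Treg cells it read 2625 and 4323 RU and in TFR cells 1442 and 2331 RU, a difference of −0.88 (SE 0.11, adjusted p = 0.00461). The decrease was similar on both days within each pair, although all 4 cell types had more Slc38a2 at d25, so that without a term for day neither comparison passed (adjusted p = 0.196 and 0.13).

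**Figure D3:**
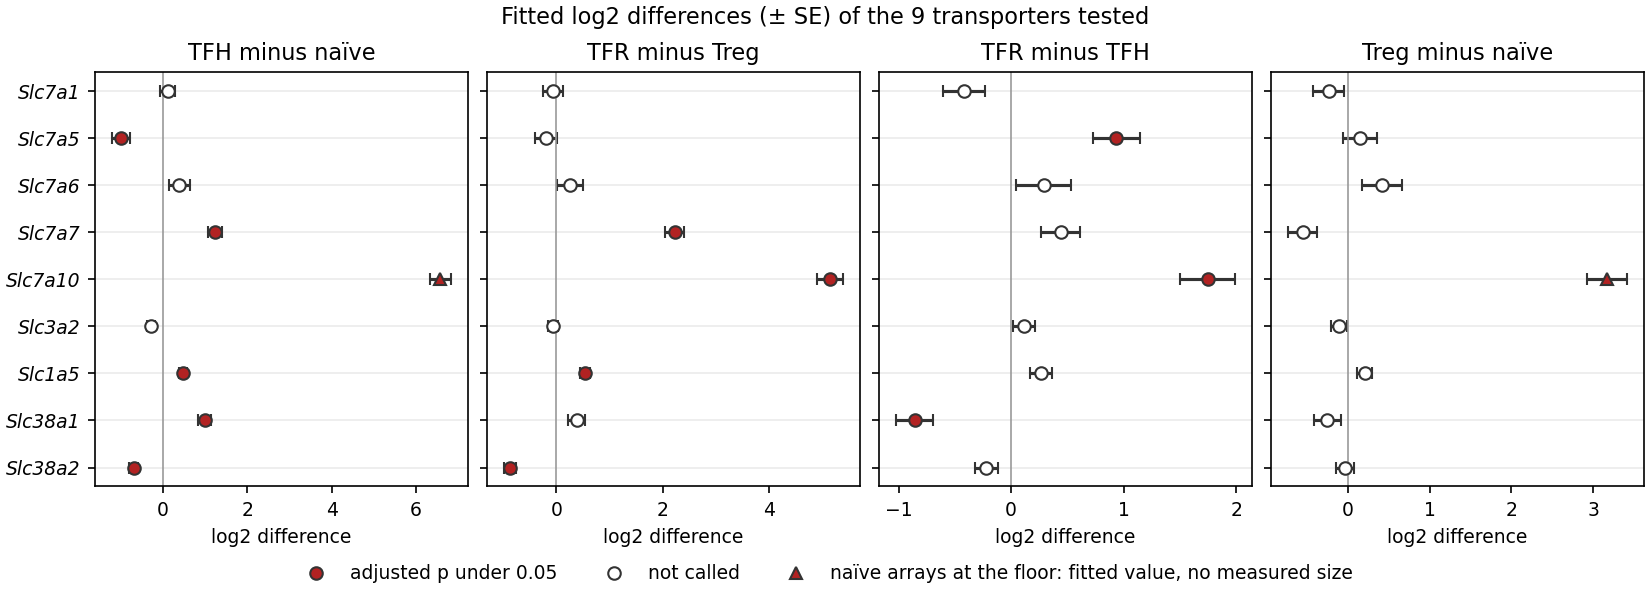
Fitted log2 difference with its SE for the 9 transporters tested in 4 pairs of cell types, red where the adjusted p was under 0.05, with triangles where the naïve arrays were at the floor so that the size was not measured. Slc7a10 leads in each panel, and Slc38a2 lies below 0 in both follicular comparisons.

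Between the follicular populations, the brightest probes of Slc7a10 and Slc7a5 were called higher and that of Slc38a1 lower in TFR than in TFH cells. Thus 2 members were higher and 1 lower. The second Slc7a5 probe did not show its difference (0.04, limma adjusted p = 0.921). Over all genes, 11.6% were called higher and 10.5% lower. TFR cells differ from TFH cells in the GL7 gate as well as in Foxp3, and at d25 their arrays lay on different slides. With slide as a block in place of day, the Slc7a5 (0.90, adjusted p = 0.15) and Slc38a1 (−0.71, adjusted p = 0.107) differences were no longer called. Proliferation genes also differed, 6 of 8 being higher in TFR than in TFH cells, with a summed level of 56200 to 78500 RU on TFR arrays, 25500 to 34000 RU on TFH arrays, 12900 to 13600 RU on Treg arrays and 7030 to 8140 RU on naïve arrays. Their part in the transporter results was not tested.

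Between the non-follicular populations, Slc7a10 was the 1 member called in Treg compared with naïve cells, against 5.89% of all genes called higher and 3.98% lower. No member was called lower by limma, and 1, Slc7a7, had an unadjusted p under 0.05, a looser threshold at which all genes were not counted. For the other 8 members the differences ranged from −0.55 to 0.42. The naïve and Treg arrays of d25 lay on different slides.

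Whether the follicular change differed between Foxp3+ and Foxp3- cells was tested as the difference of both changes, TFR minus Treg less TFH minus naïve. Over all genes, 4.03% were called higher and 4.46% lower. No member was called by limma, and 4 of 9 had an unadjusted p under 0.05, a looser threshold at which all genes were not counted. The value was 0.99 for Slc7a7 (SE 0.25, adjusted p = 0.0825), whose difference was the larger in Foxp3+ cells, and −0.61 for Slc38a1 (SE 0.23, adjusted p = 0.19), whose difference was the smaller there. For Slc7a5 it was 0.79 (SE 0.29, adjusted p = 0.184), from −0.99 in Foxp3- and −0.21 in Foxp3+ cells, but −0.07 by the second probe (adjusted p = 0.918). For Slc7a10 the fitted value was −1.42 (adjusted p = 0.0771) with the naïve arrays at the floor and 0.12 with them at the lowest level well above background, so its direction is not settled. Without the TFH array of d12 the former was called (−1.77, adjusted p = 0.0453).

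No member was called between d25 and d12, where limma called 0.0698% of all genes in either direction. At an unadjusted p under 0.05 there were 5 of 9. That is a looser threshold than the one behind the 0.0698%, and the share of all genes passing it was not counted. Slc38a2 was higher at d25 in all 4 cell types, by 0.60 (SE 0.07, adjusted p = 0.0659), and Slc7a5 lower in all 4, by −0.55 (SE 0.15, adjusted p = 0.107). Day and slide cannot be told apart, since all d12 arrays lay on 1 slide and the d25 arrays on another pair.

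The wider set of plasma membrane and lysosomal amino acid transporters was sparsely expressed. Of 45 further genes, 20 were at the floor on all 8 arrays and 19 could be tested. In TFH compared with naïve cells 8 were higher and 2 lower, and in TFR compared with Treg cells 5 were higher and 1 lower. Of the 8, Slc43a1, Slc15a3, Slc6a9 and Slc36a4 were well above background on neither naïve array. Slc6a9 and Slc36a4 were tested only because the TFH arrays detected them, so they could not have been called lower in TFH cells. For this and the following lists, the shares over all genes were again 20.9% higher and 25.6% lower in TFH, and 18.7% higher and 20.9% lower in TFR cells. Their median log2 differences were −0.03 and 0.00.

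The leucine carriers Slc43a1 and Slc43a2 (LAT3 and LAT4) were among those higher in follicular cells. Slc43a1 was at the floor on both naïve arrays and read 282 and 254 RU on Treg arrays, 751 and 565 RU on TFR arrays and 3841 and 2532 RU on TFH arrays, the latter at least 53.4-fold above naïve cells. The limma fit with the naïve arrays at the floor gave an adjusted p of 8.32e-05, which does not test that bound. TFR exceeded Treg cells by 1.28 (SE 0.17, adjusted p = 0.00558). Slc43a2 read 1503 and 1409 RU on naïve arrays, 7929 and 6087 RU on TFH arrays, 1834 and 1527 RU on Treg arrays and 3566 and 3119 RU on TFR arrays. Both were thus highest in TFH cells, in which the brightest Slc7a5 probe was lowest.

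Slc16a10, an aromatic amino acid carrier, read 451 and 487 RU on naïve arrays and 1183 and 1342 RU on TFH arrays, a log2 difference of 1.43 (SE 0.26, adjusted p = 0.0113). It read 52 and 106 RU on Treg arrays and 343 and 589 RU on TFR arrays and was called higher in TFR cells (adjusted p = 0.00302), with 2.47 at d25, whereas at d12 the Treg probe was not well above background, so that the size there was not measured. The lysosomal genes Pqlc2, an exporter of cationic amino acids, and Slc15a3, a histidine and peptide carrier, were also higher in both. Pqlc2 read 4403 and 3061 RU on TFH arrays against 1915 and 1481 RU on naïve arrays, and 4322 and 3138 RU on TFR arrays against 1611 and 1488 RU on Treg arrays. Slc15a3 was at the floor in naïve cells, where its probe was not well above background, and TFH cells were at least 4.69-fold higher. It read 887 and 592 RU on TFR arrays against 146 and 73 RU on Treg arrays. Slc6a20a, a proline carrier, was lower in both, from 440 and 373 RU on naïve arrays to 209 and 171 RU on TFH arrays and from 276 and 226 RU on Treg arrays to 196 and 143 RU on TFR arrays.

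**Figure D4:**
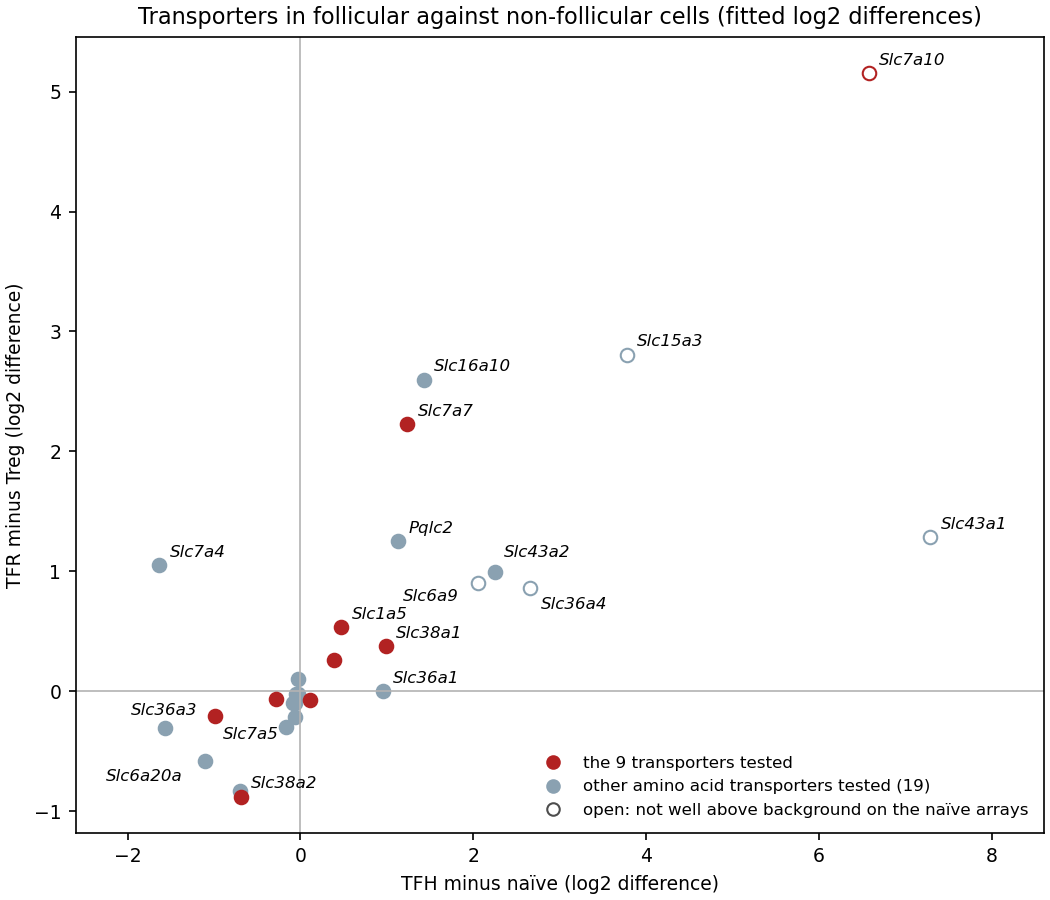
Fitted log2 differences of TFH minus naïve (horizontal) and TFR minus Treg (vertical) for the 9 transporters tested (red) and 19 other amino acid transporters (grey), with open symbols where the naïve arrays were not well above background, so that the horizontal size was not measured. Slc7a10, Slc15a3, Slc16a10 and Slc7a7 lie highest on the vertical axis, and Slc43a1 farthest to the right. The vertical size was not measured for Slc6a9 and Slc36a4, nor at d12 for Slc16a10, since their Treg probes were not well above background there.

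Among 9 mitochondrial amino acid carriers, 6 could be tested, with 1 higher and 1 lower in TFH and 1 higher and 2 lower in TFR cells. Slc25a13, the aspartate-glutamate exchanger, was higher in both, by 2.27 (SE 0.22, adjusted p = 0.00169) in TFH and 2.15 (SE 0.22, adjusted p = 0.00318) in TFR cells. Slc25a29, a carrier of basic amino acids, was lower in both, by −1.14 for TFH and −1.06 for TFR (adjusted p = 0.00689 and 0.0108). Slc25a44, a carrier of branched-chain amino acids, was lower in TFR cells by −0.38 (adjusted p = 0.0432).

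The sensing genes that link amino acid supply to mTORC1 moved in both directions. Of 32 tested, 7 were higher and 5 lower in TFH and 1 higher and 6 lower in TFR cells. Fnip2, 1 of the 7, was at the floor on the naïve arrays, where its probe was not well above background. Sesn1, a leucine-regulated inhibitor of mTORC1 activation, fell from 12011 and 12493 RU on naïve arrays to 2144 and 2684 RU on TFH arrays (−2.35, SE 0.10, adjusted p = 0.000215), and from 13514 and 15692 RU on Treg arrays to 8486 and 10242 RU on TFR arrays (−0.64, SE 0.10, adjusted p = 0.00897). Lamtor4, a subunit of the lysosomal Ragulator complex, was higher by 1.15 in TFH and by 0.59 in TFR cells, with adjusted p of 0.001 and 0.0091. Itfg2, of the KICSTOR complex, and Seh1l, of GATOR2, were lower in both. Over the alternative settings, the count of called genes of this list ranged from 5 to 14 for TFH and from 1 to 11 for TFR cells.

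Genes of the ATF4 amino acid response were called in both directions in follicular cells. Of 19 tested, 8 were higher and 4 lower in TFH and 10 higher and 2 lower in TFR cells. In each comparison, 3 of those called higher, Chac1, Nupr1 and Stc2, were well above background on no naïve or Treg array. They were tested only because the follicular arrays detected them, so they could not have been called lower. Asns, asparagine synthetase, read 172 and 148 RU on naïve arrays, 1769 and 878 RU on TFH arrays, 692 and 451 RU on Treg arrays and 3473 and 2551 RU on TFR arrays, and all 4 comparisons between cell types were called. Psat1, of serine synthesis, was higher by 1.31 (SE 0.13, adjusted p = 0.0016) in TFH and 1.63 (SE 0.13, adjusted p = 0.00162) in TFR cells, and Cebpb, a transcription factor, by 2.06 and 1.69 (adjusted p = 0.00354 and 0.00857). Trib3, an inhibitor of ATF4, was lower in both, by −1.37 and −1.48 (adjusted p = 0.00619 and 0.00666), as was the member Slc38a2. Over the alternative settings, the count of called genes was 7 to 15 for TFH and 5 to 12 for TFR cells.

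Of the enzymes of glutamine, cystine, arginine and branched-chain amino acids, 19 were tested, with 3 higher and 5 lower in TFH and 6 higher and 4 lower in TFR cells. These counts ranged from 6 to 10 called genes for TFH and from 5 to 11 for TFR cells over the alternative settings. Gls2, 1 of those called higher in TFR cells, was well above background on the TFR arrays only, so it could not have been called lower there. Glul, glutamine synthetase, was lower by −1.41 for TFH and −0.84 for TFR (adjusted p = 0.000959 and 0.00609). Odc1, the first enzyme of polyamine synthesis from ornithine, went up, from 6706 and 7201 RU on naïve arrays to 44795 and 53020 RU on TFH arrays and from 8506 and 9227 RU on Treg arrays to 44766 and 41917 RU on TFR arrays. Bcat1, the cytosolic branched-chain aminotransferase, was at the floor in naïve cells and read 52 and 61 RU on TFH arrays, 85 and 158 RU on Treg arrays and 385 and 440 RU on TFR arrays, the latter 1.82 above Treg cells (SE 0.23, adjusted p = 0.00512). It is 1 of the 3 enzymes called higher in TFH cells, but its TFH mean of 56.2 RU lies under the lowest level well above background on the naïve arrays (58.4 RU), so that no rise in TFH cells was measured for it.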

How the data were processed

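Total RNA (25 ng) was amplified once, labelled and hybridized to 1-colour Agilent mouse arrays with 4 spots per probe (39429 probes). The authors extracted spot intensities with Agilent Feature Extraction (10.7.3.1), and per the labels each sample is 1 array. The deposited scanner tables hold the processed signal intensity of each spot. The deposited flags and gene names (other columns) were used as given. The authors' normalized values were used as an alternative. Annotation columns give positions on NCBI37.

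The authors' steps were repeated. Spots flagged as outliers, outside 1.42 times the interquartile range of their replicate spots or with a pixel CV above 0.5 were left out (86.4% to 89.2% of spots kept), the geometric mean was taken per probe, arrays were quantile normalized, the 75th percentile was set to 1500 and values under 20 were set to 20. The result correlated with the authors' values at r = 0.9994. Between 18261 and 19867 probes per array were well above background, and none was saturated. The number of arrays limits the precision.

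A gene was tested where its brightest probe was well above background (over 50% of kept spots) on both arrays of 1 or more cell types. Log2 values were fitted in limma (3.58.1, R 4.3.3; lmFit, eBayes) on terms for cell type and for day, with 3 residual degrees of freedom, and Benjamini-Hochberg adjustment over 15764 genes at 0.05. The fit was tested on simulated data. Arrays lay on 3 slides. Bounds compare the bright group's mean with the higher of the dim probe's level and the lowest level well above background, on log2 means. The study's own test needs replicates per group and day and was not used. Alternatives covered normalization, background (normexp, offset 50), floor, spot rules, probe choice, filters, slide, day, moderation and each array left out.

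Members and gene lists were chosen with earlier results of these data known. All members are named, and of the other lists the genes with the largest mean change over both follicular comparisons among those called in 1 of them, well above background on both of its sides and in the same direction on both days (up to 6 further transporters and 4 genes of each other list). Some genes that this rule selects are not reported here.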

Additional observations from a re-analysis of the deposited data

Results flagged for a closer look

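The follicular change differed between Foxp3+ and Foxp3- cells, by the test of the difference itself (TFR minus Treg less TFH minus naïve, limma), in none of the 9 transporters tested (4 at an unadjusted p under 0.05, a threshold at which all genes were not counted). In the wider lists it did so in 4 of 19 further transporters, 2 of 32 sensing genes, 2 of 19 genes of the ATF4 response and 1 of 19 enzymes, against 4.03% of all genes called higher and 4.46% lower. Of these, 3 are among the genes named by the rule for the wider lists. Slc43a1 rose less in Foxp3+ cells (log2 difference −6.00, SE 0.24, adjusted p = 0.0028), a size that depends on the floor in naïve cells and was −4.46 with the naïve arrays at the lowest level well above background. Slc43a2 rose less in Foxp3+ cells (difference −1.26, SE 0.14, adjusted p = 0.0138). Sesn1 fell less in Foxp3+ cells (difference 1.71, SE 0.14, adjusted p = 0.00677).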

How the results depend on the processing

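Without the term for day, 3 in place of 6 transporters were called in TFH compared with naïve cells, 2 in place of 4 in TFR compared with Treg cells and 1 in place of 3 in TFR compared with TFH cells. The last count was also 1 with slide as a block in place of day and 0 without the filter on dim probes, which adjusts over more genes, and it ranged from 0 to 2 with 1 array left out (0 without either TFR array and 1 without the TFH array of d25). In Treg compared with naïve cells the count fell from 1 to 0 with only genes above background on all 8 arrays, a filter that removes Slc7a10. The difference between the Foxp3+ and Foxp3- changes gave 1 call in place of 0, Slc7a10, in the authors' normalized table, with no floor at 20 and with trended robust moderation, and 0 to 1 with 1 array left out. Between d25 and d12, 1 call in place of 0, Slc38a2, appeared with normexp background correction, with only genes above background on all 8 arrays and with trended robust moderation. Of 1056 pairs of a member's difference and an alternative, 1005 kept their side of the threshold, 38 lost a call, 13 gained one, and no called difference changed sign. Of the 14 called differences, 6 were called under every alternative run, namely Slc7a10 in TFH and Treg compared with naïve cells and in TFR compared with Treg cells, Slc7a7 in both follicular comparisons, and Slc38a1 in TFH compared with naïve cells. Without quantile normalization the median over all genes for TFH minus naïve cells was −0.13 in place of −0.07. Of 200 counts of the other lists under alternatives, 30 lay more than 1.5 times from the reported count. With an array left out, the lone array of its cell type is assumed to vary like the others. Day is a term of the fit and pairs the arrays of d12 and of d25. The labels carry no replicate numbers for a further pairing. Slc7a10 could not be fitted with only genes above background on all 8 arrays. What limits the data is 2 arrays per cell type, and a signal at the background, for Slc7a11 on all arrays, for Slc7a10, Slc43a1, Slc15a3, Fnip2 and Bcat1 on the naïve arrays and for Slc16a10 on the Treg array of d12. The same holds for Slc6a9, Slc36a4, Chac1, Nupr1 and Stc2 on the naïve and Treg arrays, and for Gls2 on all but the TFR arrays.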
